A study of Apis mellifera with 18 samples.

Results

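Dop1, Dop2, Dop3, Oa1 and Tyr1 are the dopamine, octopamine and tyramine receptors of the honeybee that were followed here across tissues. They were found by their RefSeq symbol or synonym, and all transcripts of a gene were summed. The files held 5 such genes of 12393 genes in all, and 16 of their transcripts of 28396. Counts were recorded for 4 of the 5 genes and for 8 of the 16 transcripts.

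RNA was sequenced from 3 organs, the brain, the ventriculus or midgut and the Malpighian tubules, which are the excretory organs of insects, in *Apis mellifera* workers of Colony 36. The 6 patrilines P1, P7, P8, P11, P21 and P24, which are groups of full sisters by a naturally mated queen and different drones, gave 1 library per tissue, 18 libraries in all. Each library was made from a pool of 5 workers that were taken from the colony at 7 days of age, given clothianidin at 4.27 ppb the next day and frozen 24 h later. All pools were exposed to this neonicotinoid insecticide, so no level described here is that of an unexposed bee, and all patrilines share a mother and a colony. The study chose the patrilines for high or low survival in an earlier test. The labels do not give that grouping and it was not compared here.

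Biogenic amines act as neurotransmitters and neuromodulators in insects through receptors that couple to G proteins. Dop1 and Dop2 are dopamine receptors that raise cyclic AMP, whereas Dop3 is a dopamine receptor of the D2 type that lowers it. Oa1 is an octopamine receptor that releases calcium inside the cell, and Tyr1 is a tyramine receptor that lowers cyclic AMP. In the honeybee brain these amines are known for their parts in learning, in the sensing of sucrose and in the division of labour among workers.

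Before the receptors are described, 3 libraries need to be named because they stood apart. Royal jelly genes, which are strongly expressed in the glands of the worker's head, took 28.1% of counts in the brain pool of P11 and 19.2% in that of P21, against 0.856% to 3.97% in the other 4 brain pools. The summed level of the 15 matched neuron markers was 400 and 384 CPM (the count scaled to a fixed library total) in the brain pools of P11 and P21, and 912 to 1265 CPM in the other 4. Of the 9 neuron markers tested, 7 were called higher in the brain than in the ventriculus and 8 higher than in the tubules (42.7% and 38.8% of all genes tested were), while Syx1A, a protein of vesicle fusion, was called lower in the brain in both (FDR = 0.000149 and 0.0442). The Malpighian tubule pool of P21 was high in many genes of nerve cells, but not in all. Its neuron markers summed to 127.6 CPM, against 13.8 to 32.1 CPM in the other 5 tubule pools. The sum was led by nAChRa1 (69.9 CPM), Nrx-1 (23.3) and nAChRb1 (14.5). Syx1A (5.52 CPM) and Syt1 (0.126) were not raised, against up to 8.20 and 0.341 CPM in the other tubule pools. Neither were nAChRa6 and nAChRa7. Across the 18 libraries the total count was 39722329 to 87946924. Pools of a tissue always differed beyond counting noise, with a chi-square of at least 57.2 per degree of freedom over 45 pairs, and a pool counted as 1 replicate. Without the 3 libraries the brain means were 186.1 CPM for Dop1, 18.3 for Dop2, 270.3 for Oa1 and 149.2 for Tyr1, and the tubule means were 2.58, 0.107, 6.77 and 1.96 CPM.

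All 4 counted receptors were most abundant in the brain. Dop1 had 211.6 CPM in P1, 174.9 in P7, 190.9 in P8, 63.4 in P11, 58.1 in P21 and 167.1 in P24, with a mean of 144.4 ± 66.5 (SD, n = 6). The brain pools of P11 and P21 were low and the other 4 lay close together. Dop1 ranged from 1.58 to 3.01 CPM in the ventriculus (median 1.82, mean 1.98 ± 0.529, n = 6) and from 1.49 to 14.7 CPM in the tubules (median 2.87, mean 4.61 ± 5.04, n = 6). Its brain levels did not overlap with those of either other tissue. The share of all genes without overlap between tissues is not given here, for this or the other receptors.

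The mean level of Dop1 in the brain was 72.8-fold that in the ventriculus and 31.3-fold that in the tubules. Without the 3 libraries the folds were 93.9 and 72.2. With TMM normalization, which rescales each library so that most genes are level, the logFC of brain over ventriculus was 4.55 on the log2 scale (SE 0.478, FDR = 1.50e-07, edgeR's quasi-likelihood test). For brain over tubules it was 4.52 (SE 0.476, FDR = 2.33e-07), and these comparisons share the brain pools. Ventriculus and tubules did not separate (logFC = −0.02, SE 0.421, FDR = 0.969), but without the tubule pool of P21 Dop1 was higher in the ventriculus (logFC = 0.71, FDR = 0.0308). In CPM the mean without that pool was 1.98 in the ventriculus and 2.58 in the tubules. With all 18 libraries scaled to the library total alone the logFC was −1.22 (FDR = 0.0284), a scaling under which the median of all genes was −1.27. Relative to the median gene Dop1 was 0.12 under TMM and 0.05 under the library total. A scaling shifts all genes of a library alike, so such values lie close together for any gene.

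Oa1, the octopamine receptor, had 243.0 CPM in P1, 255.9 in P7, 274.8 in P8, 124.5 in P11, 108.2 in P21 and 307.6 in P24 (mean 219.0 ± 82.6, SD, n = 6). The lowest brain pool was again that of P21, and all brain pools lay above all pools of the other tissues. Oa1 ranged from 2.24 to 3.34 CPM in the ventriculus (median 2.53, mean 2.62 ± 0.389, n = 6). It ranged from 4.36 to 30.1 CPM in the tubules (median 7.22, mean 10.7 ± 9.87, n = 6), with no overlap between the CPM of tubules and ventriculus.

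The logFC of Oa1 in brain over ventriculus was 4.73 (SE 0.418, FDR = 1.78e-08) and in brain over tubules 3.93 (SE 0.401, FDR = 1.65e-07). In ventriculus against tubules it was −0.81 (SE 0.364, FDR = 0.0649), which did not pass the threshold of 0.05. Scaled to the library total alone, as the CPM are, the logFC was −2.02 (FDR = 0.000289), but relative to the median gene Oa1 was −0.67 under TMM and −0.76 under the library total. The TMM-scaled CPM of the tissues overlapped (3.69 to 6.45 in the ventriculus and 3.84 to 22.6 in the tubules). Without the tubule pool of P21 the logFC was −0.24 (FDR = 0.396).

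Tyr1, the tyramine receptor, had 173.3 CPM in the brain pool of P1, 143.6 in P7, 148.5 in P8, 46.0 in P11, 38.6 in P21 and 131.7 in P24 (mean 113.6 ± 56.9, SD, n = 6). As for Dop1, the pools of P11 and P21 stood far below the rest. In the ventriculus it ranged from 3.14 to 5.38 CPM (median 3.79, mean 3.93 ± 0.758, n = 6) and in the tubules from 1.18 to 11.9 CPM (median 2.25, mean 3.62 ± 4.12, n = 6). The tubule pool of P21 was above every ventriculus pool, and the other 5 tubule pools, at 2.71 CPM or less, were below every one.

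Tyr1 was higher in the brain than in the ventriculus (logFC = 3.17, SE 0.481, FDR = 1.13e-05) and than in the tubules (logFC = 4.52, SE 0.512, FDR = 5.47e-07). It was the only receptor with a call between ventriculus and tubules, where it was higher in the ventriculus (logFC = 1.35, SE 0.456, FDR = 0.0173). Without the tubule pool of P21 this logFC rose to 2.12 (FDR = 2.76e-05). The call was lost without P1 (FDR = 0.0543), without P7 (FDR = 0.0569) and without P24 (FDR = 0.0945). With all 18 libraries and the library total as the only scaling the logFC was 0.12 (FDR = 0.828), which was not a call. Relative to the median gene it was 1.48 under TMM and 1.39 under the library total, values that lie close for any gene.

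Dop2, the other dopamine receptor with counts, was low in the same brain pools. Gene lengths were not used here, so its level was not compared with that of the other receptors. It had 20.6 CPM in the brain pool of P1, 17.0 in P7, 18.7 in P8, 5.14 in P11, 4.29 in P21 and 17.0 in P24 (mean 13.8 ± 7.14, SD, n = 6). Outside the brain Dop2 was at the limit of what these libraries could show. The ventriculus held 45 counts in 6 pools (0.0464 to 0.207 CPM), and the tubules held 93 counts, 71 of them in P21 and 0 in P1 and P24, where 3 counts would be 0.0617 and 0.0727 CPM. The logFC was 5.28 (SE 0.894, FDR = 3.74e-05) over the ventriculus and 4.87 (SE 0.857, FDR = 6.35e-05) over the tubules. Ventriculus and tubules did not separate (logFC = −0.41, SE 0.853, FDR = 0.692).

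**Figure D1:**
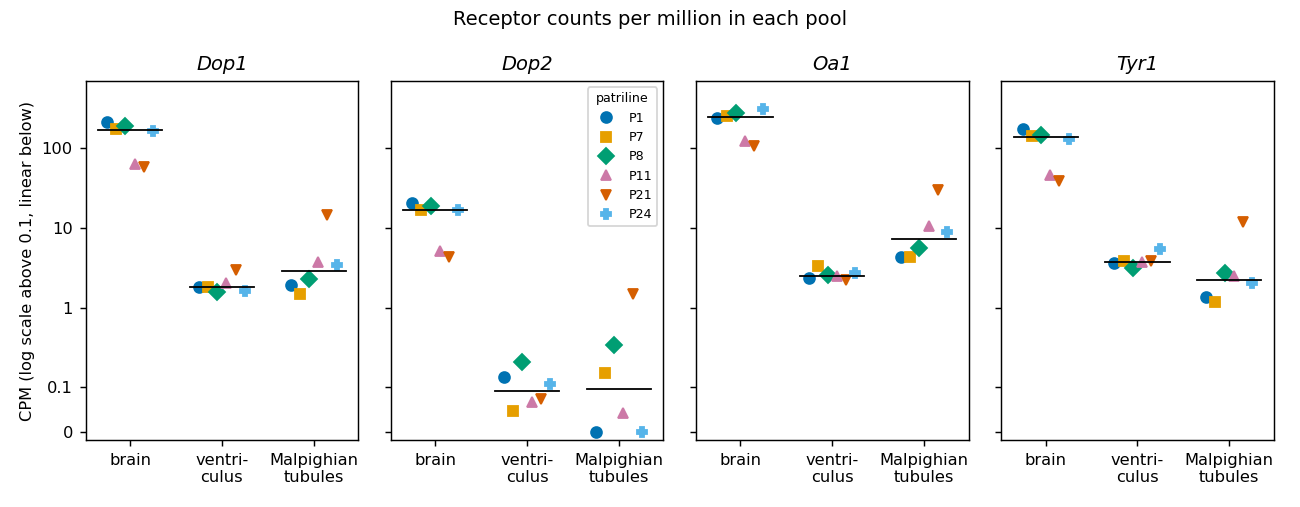
CPM of Dop1, Dop2, Oa1 and Tyr1 in each of the 18 pools, by tissue. The vertical axis is logarithmic above 0.1 CPM and linear below, each point is 1 pool coloured by patriline, and the black line is the median of 6 pools. All brain pools lie above all others for each receptor, and the share of all genes for which this holds is not given here. P11 and P21 are the lowest brain pools and P21 the highest tubule pool.

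Thus all 4 tested receptors were higher in the brain in both comparisons, with logFC from 3.17 to 5.28. Among all 8759 genes tested, 42.7% were called higher in the brain than in the ventriculus and 38.8% higher in the brain than in the tubules. Between ventriculus and tubules 1 of 4 receptors was called higher in the ventriculus and 0 of 4 in the tubules (unadjusted p under 0.05 for Tyr1 and, in the tubules' direction, Oa1), against 26.5% and 33.9% of all genes. DESeq2 also called Tyr1 alone. The median logFC of the receptors was 4.64, 4.52 and −0.22 in the 3 comparisons, beside 0.15, 0.04 and −0.14 over all genes tested.

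How large the brain differences were depended on the scaling. With the library total alone, the median logFC of all genes moved from 0.15 to 1.73 for brain over ventriculus, from 0.04 to 0.49 for brain over tubules and from −0.14 to −1.27 for ventriculus over tubules. Relative to that median, Dop1 was 4.40 higher in the brain than in the ventriculus under TMM and 4.46 higher under the library total. Oa1 was 4.58 and 4.66 higher, Tyr1 3.02 and 3.13, and Dop2 5.13 and 5.24. Taken relative to the median gene, the brain values thus moved by 0.11 or less between the scalings. This follows from the subtraction, since a scaling shifts all genes of a library alike, and is no separate check of the calls. Leaving out the tubule pool of P21 raised the logFC of brain over tubules to 5.25 for Dop1, 6.42 for Dop2, 4.48 for Oa1 and 5.29 for Tyr1. Without this pool and the brain pools of P11 and P21 the logFC over the tubules was 5.53, 6.76, 4.68 and 5.60 for Dop1, Dop2, Oa1 and Tyr1, and over the ventriculus 4.82, 5.62, 4.93 and 3.48. All of these passed the threshold.

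Dop3 was listed at 0 in all 18 libraries for each of its 5 transcripts. The same was true of 67 of the 359 coding genes with 5 transcripts (18.7%), but of only 13 of the 5049 coding genes with 1 transcript (0.257%). The counting was done per transcript, and a fragment that fits several transcripts was counted on none of them. A count of 0 in a gene with several transcripts is therefore not evidence that the gene was silent, and no fold was computed for Dop3. The fragments that fit several features were 30.9% to 50.3% of the counting output of a library, so the levels of Dop1, Dop2 and Tyr1, with 4, 4 and 2 transcripts, are partial as well. Oa1 has 1 transcript and overlaps no other gene in the RefSeq table.

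The brain pools of P11 and P21 differed from the other 4 in the same way for all counted receptors. Relative to the median of P1, P7, P8 and P24, Dop1 was at 34.7% in P11 and 31.8% in P21. Dop2 was at 28.8% and 24.1%, and Tyr1 at 31.5% and 26.5%. Oa1 was lowered least, to 46.9% and 40.8%. In P1, P7, P8 and P24 the receptors stayed between 90.2% and 118.7% of that median.

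Genes of nerve cells and of glia, the supporting cells of nervous tissue, were low in the same pools. The acetylcholine receptor subunit nAChRb1 was at 37.0% in P11 and 35.2% in P21, the synaptic adhesion protein Nrx-1 at 35.9% and 35.1%, and brp, a protein of the presynaptic active zone, at 26.8% and 28.7%. Many genes of other head tissues were high there, with exceptions. The opsin Lop1, the long-wavelength visual pigment, was at 1699% and 739%, and vitellogenin (Vg), an egg yolk precursor made in the fat body, at 1764% and 1699%. The fat body gene Hex70b was low instead, at 46.0% and 65.4%, as were the troponin genes TpnCIIb (46.7% and 53.1%) and TpnCIIIb (39.6% and 43.2%), and the royal jelly gene Mrjp8 was at 85.3% and 173.8%. Over whole lists, the 9 royal jelly genes summed to between 8563 and 281092 CPM in brain pools, the 4 opsins to between 584 and 9901 CPM, the 5 fat body markers to between 52.5 and 702 CPM, and the 7 matched muscle markers to between 38.0 and 341 CPM.

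**Figure D2:**
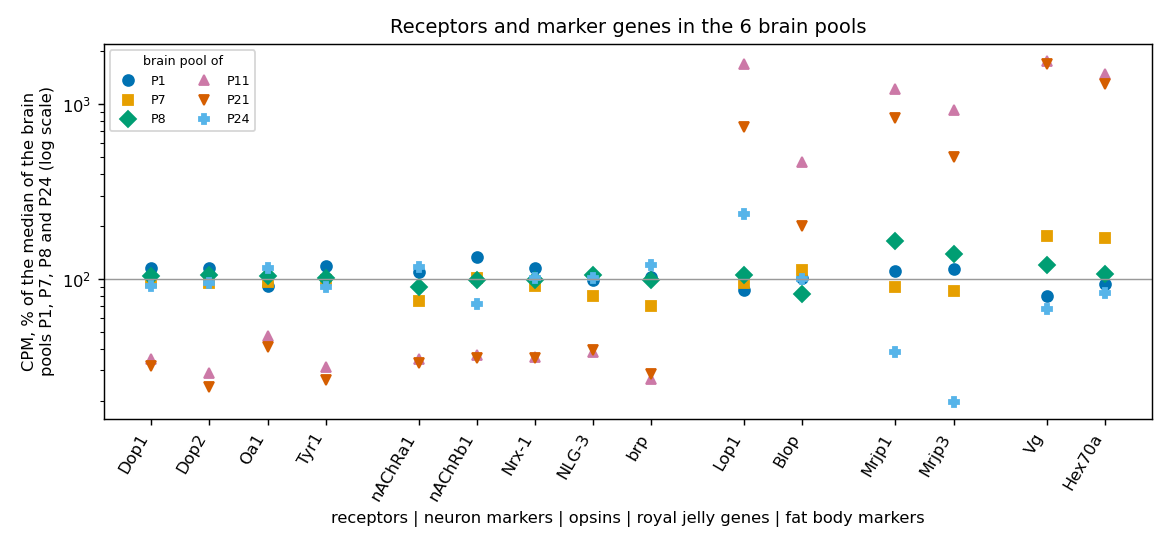
Level of the 4 counted receptors and of marker genes in each of the 6 brain pools, as a percentage of the median of the pools of P1, P7, P8 and P24 (logarithmic axis, grey line at 100%). Each point is 1 pool. The receptors and the 5 neuron markers drawn sit at 24.1% to 46.9% in P11 and P21, and the opsins, royal jelly genes and fat body markers drawn sit at 202% or more in both. Of the markers not drawn, Syx1A reaches 55.2% in P11 and nAChRa3 47.8% in P21, and Hex70b and Mrjp8 do not exceed 173.8%.

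When the royal jelly genes were left out of the library totals, Dop1 was 88.2 CPM in P11 and 71.9 in P21, and Tyr1 64.0 and 47.8. Both pools still lay below the other 4, where Dop1 was at least 168.6 CPM and Tyr1 at least 132.8 CPM. Set against the summed neuron markers of the same pool instead, the receptors varied much less. Ratios to single markers are not given here, and the sum was led by nAChRa1 (brain mean 494.7 CPM), Nrx-1 (166.6) and nAChRb1 (114.6). Dop1 was 14.0% to 19.2% of that sum over the 6 brain pools, Dop2 1.12% to 1.86%, Oa1 19.2% to 31.1% and Tyr1 10.1% to 15.7%. By this measure P11 and P21 lay within the range of the other pools for Dop1 (15.9% and 15.1%), but not for all receptors. Dop2 was below the other 4 pools in both (1.29% and 1.12%), Tyr1 was below them in P21 (10.1%) and within them in P11 (11.5%), and Oa1 was above them in both (31.1% and 28.1%). The part of other head tissues in the low values was not tested, and in pooled tissue fewer nerve or glial cells and less RNA per cell cannot be told apart.

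The tubule pool of P21 was the highest of the 6 for every counted receptor. It held 14.7 CPM of Dop1, against 1.49 to 3.71 CPM in the other 5 pools, and 30.1 CPM of Oa1, against 4.36 to 10.7 CPM. Tyr1 was 11.9 CPM there and 1.18 to 2.71 CPM elsewhere, and Dop2 1.49 CPM and at most 0.339 CPM elsewhere. The excess over the median of the other tubule pools was set against the median of the brain pools without P21. It was 7.11% of that median for Dop1, 8.53% for Dop2, 9.59% for Oa1 and 6.89% for Tyr1. The brain pool of P21 itself was lower for each receptor, so the excess is a larger part of its level.

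Genes that are otherwise nearly confined to the brain were raised in the same library. There were 30 genes with at least 20 CPM in each of the other 5 brain pools and at most 0.5 CPM in each of the other 5 tubule pools, none of them a receptor described here. All 30 were higher in the tubule pool of P21 than in every other tubule pool. Their level there had a median of 10.5% of their median in the other 5 brain pools (quartiles 9.51% and 12.2%). The choice held the other 5 tubule pools low and left P21 free, so this count is partly set by it. No such choice is given here with another tubule pool left free. nAChRb1 stood at 14.5 CPM in the tubule pool of P21 and at 0.327 CPM or less in the other tubule pools. The 2 matched glia markers summed to 1.85 CPM in the tubule pool of P21 and to at most 0.151 CPM in the others. The royal jelly genes summed to 13879 CPM there, against at most 2037 CPM in the other tubule pools. Their part in the receptor values was not tested.

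The ventriculus differed from that pool in its neuron markers. nAChRb1 was at most 0.0496 CPM in every ventriculus pool, and the summed neuron markers were 10.2 to 31.4 CPM. This sum was led by Nrx-1, nAChRa1 and Syx1A (means 7.29, 4.18 and 3.92 CPM). Of these, Syx1A was called lower in the brain than in the ventriculus. The markers nAChRa2 and NLG-5 were listed at 0 in all ventriculus and tubule pools and so did not separate the tissues. The median of Tyr1 in the ventriculus was 2.76% of its brain median, that of Dop1 1.06%, that of Oa1 1.01% and that of Dop2 0.537%. In the tubules the medians were 1.64% for Tyr1, 1.68% for Dop1, 2.89% for Oa1 and 0.571% for Dop2. The order of the receptors by this measure thus differed between the tissues, with Tyr1 leading in the ventriculus and Oa1 in the tubules.

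Ratios of receptor counts within a pool are free of library scaling and, for the same transcripts, of gene length when compared between tissues. They still depend on which fragments were counted. Fragments that fit several features were 30.9% to 32.9% in ventriculus libraries, 42.0% to 50.3% in the brain and 45.6% to 47.2% in the tubules. Dop1 and Tyr1 have several transcripts and overlapping genes and Oa1 does not, and the part of this in the ratios was not tested. The ratio of Oa1 to Tyr1 was 1.40 to 2.80 in the 6 brain pools, 0.506 to 0.874 in the ventriculus and 2.05 to 4.36 in the tubules. Tyr1 was thus counted more often than Oa1 in every ventriculus pool and less often in every other pool. The ratio was lower in the ventriculus than in the tubules of the same patriline in 6 of 6 (log2 difference −2.27, SD 0.609). It was also lower in the ventriculus than in the brain in 6 of 6 (brain minus ventriculus 1.64, SD 0.598).

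The ratio of Dop1 to Tyr1 followed the same pattern. It was 1.22 to 1.50 in the brain, 0.304 to 0.774 in the ventriculus and 0.848 to 1.69 in the tubules. The ventriculus was lower than the tubules in 6 of 6 patrilines (difference −1.38, SD 0.651) and lower than the brain in 6 of 6 (brain minus ventriculus 1.39, SD 0.362). Dop1 to Oa1 was 0.510 to 0.871 in the brain, 0.551 to 1.34 in the ventriculus and 0.341 to 0.490 in the tubules, and was lower in the tubules than in each of the other tissues in 6 of 6 patrilines.

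Each of these 6 differences had a two-sided p of 0.031 in an exact sign-flip permutation test over the 6 patrilines, the smallest it can give, and an adjusted p of 0.0469 over 9 tests. The 9 tests are not independent, since each ratio and each contrast of tissues follows from the others. The adjusted p of this exact test is below 0.05 only because 6 of them tie at the smallest p. The other 3 tests did not pass. The adjusted p of the exact permutation test was 0.527 for Dop1 to Oa1 between brain and ventriculus (difference −0.24), 0.938 for Dop1 to Tyr1 between brain and tubules (difference 0.01) and 0.0804 for Oa1 to Tyr1 between brain and tubules (difference −0.63). Without P21 the 6 differences lay at −2.30, −1.52, 1.51, 1.48, 0.75 and 0.78 and kept their sign, but with 5 pairs the exact test cannot go below a p of 0.0625. The ratios were chosen after the levels had been seen.

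**Figure D3:**
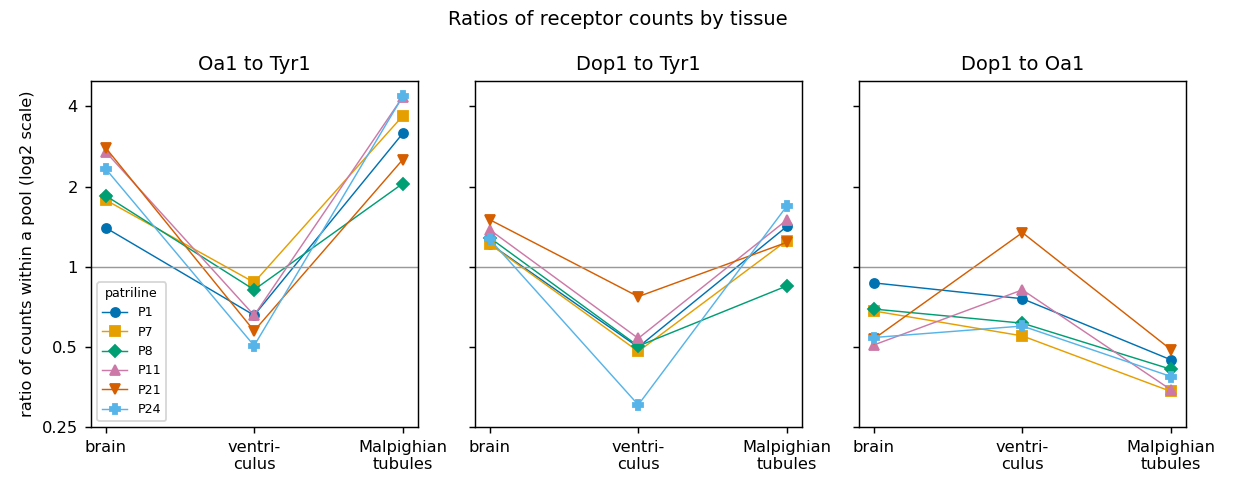
Ratio of the counts of Oa1 to Tyr1, Dop1 to Tyr1 and Dop1 to Oa1 within each pool, by tissue (log2 axis, grey line at a ratio of 1). Each line joins the 3 tissues of 1 patriline. The 6 ventriculus pools lie below 1 for Oa1 to Tyr1 and for Dop1 to Tyr1.

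Shares of transcripts were compared within a gene. Of the 4 Dop1 transcripts, NM_001011595.1 held most counts everywhere, with mean shares of 90.0% ± 1.06 in the brain, 92.9% ± 0.983 in the ventriculus and 89.5% ± 3.85 in the tubules (SD, n = 6). XM_006563321.3 took a small part. Its share of Dop1 counts was 5.21% to 6.80% in the brain pools, 0% to 1.83% in the ventriculus (5 of 791 counts) and 0.575% to 4.21% in the tubules (36 of 1267 counts, 27 of them in P21). The lowest brain share was thus above every share in the other tissues.

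The mean share of XM_006563321.3 was 5.71 percentage points higher in the brain than in the ventriculus (SD 1.20) and 4.01 higher than in the tubules (SD 1.97), each in 6 of 6 patrilines. Without P21 the differences were 6.18 and 4.55. Both had a p of 0.031 in the exact sign-flip permutation test and an adjusted p of 0.075 over 12 tests, so that neither passed the threshold after adjustment. XM_026445263.1 had a lower share in the brain (0.359%) than in the tubules (1.58%) in 6 of 6 patrilines with the same adjusted p of 0.075 in the exact test, but it rests on 15 tubule counts. The share of the main transcript was lower in the brain than in the ventriculus (difference −2.97 percentage points), again with an adjusted p of 0.075 in the exact test. Of the 12 tests, 0 passed after adjustment, and 5 had an unadjusted p of 0.031 in the exact test.

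**Figure D4:**
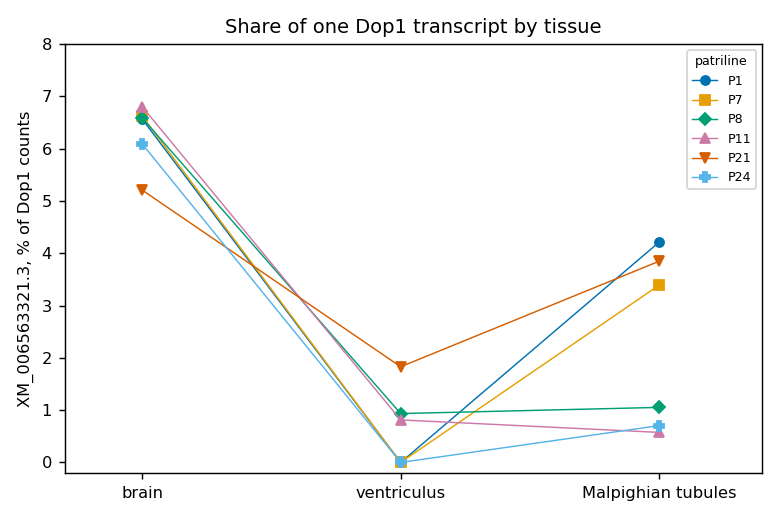
Share of Dop1 counts that fell on the transcript XM_006563321.3 in each pool (vertical axis in percent, lines join the tissues of 1 patriline). All 6 brain pools lie at 5.21% or more. The ventriculus pools lie at 1.83% or less.

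Of the 4 transcripts of Dop2, only NM_001011567.1 and XM_026445259.1 had counts. XM_026445259.1 held 51.5% to 63.0% of Dop2 counts in the brain pools (2085 of 3740 counts). It held 4 of 45 counts in the ventriculus and 39 of 93 in the tubules. Those counts were below the minimum of 20 per library and were not tested. All Tyr1 counts fell on XM_026439269.1, and its other transcript NM_001011594.1 was listed at 0. In the RefSeq table Dop1 overlaps the noncoding genes LOC102654376 and LOC113219284, Dop2 overlaps LOC107965601, and Tyr1 overlaps LOC412949 and the noncoding gene Ks-1. Since the strand setting of the counting is not given in the sources used here, reads of overlapping genes could not be told apart.

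Few other genes of amine signalling could be matched by symbol. Among the serotonin receptors, 3 of 4 matched genes were tested. 5-HT7 was higher in the brain than in the ventriculus (logFC = 5.09, FDR = 1.19e-06) and than in the tubules (logFC = 3.86, FDR = 2.81e-06), at 0.343 to 0.822 CPM in the brain. 5-HT1 was higher in the brain than in the ventriculus (logFC = 2.48, FDR = 0.00181) but did not pass against the tubules (logFC = 0.86, FDR = 0.150), while 5-HT2beta passed neither test (FDR = 0.874 and 0.822), and 5-HT2alpha was listed at 0 in every library. Of the list of 13 genes of amine synthesis and transport 2 were matched, and neither passed the filter on low counts. One of them, Tbh, the enzyme that makes octopamine from tyramine, had 2 counts in the 6 brain pools, 4 in the ventriculus and 1 in the tubules. Fragments that fit several features were not counted here either, so these low counts and the 0 of 5-HT2alpha do not show silent genes.

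Of the 17 genes listed for G proteins and second messengers 4 were matched and 3 tested. Ac3, an adenylyl cyclase that makes cyclic AMP, was higher in the brain than in the ventriculus (logFC = 7.71, FDR = 6.30e-07) and than in the tubules (logFC = 4.84, FDR = 1.99e-05), and so was Pkc, a protein kinase C (logFC = 7.90 and 4.82, FDR = 7.69e-07 and 3.11e-05). The gene For, a protein kinase activated by cyclic GMP, went the other way and was lower in the brain (logFC = −1.13 and −1.83, FDR = 3.89e-06 and 2.88e-08). In CPM the For levels of brain and ventriculus overlapped, and the brain mean was the higher one (7.45 and 5.36 CPM). Ac3 and Pkc were at most 0.231 CPM in every ventriculus pool, where Dop1, Oa1 and Tyr1 were all at 1.58 CPM or more.

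The pattern over the 18 libraries was compared with that of 253 genes by Pearson's r of log2(CPM + 0.5). These genes had a mean of at least 1 CPM and a symbol that is not a LOC number. Genes known only by a LOC number were left out of the ranking. For Dop1 the most similar were Rfwd3 (r = 0.997), Ac3 (r = 0.995) and Stg-1 (r = 0.995). Those of Oa1 were Pkc (r = 0.996), the neuroligin NLG-3 (r = 0.995) and Kr (r = 0.993), and those of Dop2 were Mir3764 (r = 0.994), the glutamate transporter Eaat-2 (r = 0.994) and the tachykinin gene Tk (r = 0.993). For Tyr1 the highest r were lower, 0.986 with Mir9886, 0.984 with brp and 0.983 with Dop2. The libraries share tissue and depth, so these values describe the contrast of the brain with the other tissues.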

How the data were processed

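The authors pooled RNA of 5 workers per tissue and patriline (300 ng from each worker), trimmed the reads (Trimmomatic), aligned these (STAR) and counted fragments per transcript (HTSeq). The deposited values are these raw counts, not normalized. The study names Amel_4.5 as its genome. Not given in the sources used here are tool versions, annotation release and strand setting. The transcript accessions matched a RefSeq table of Amel_HAv3.1 (27887 of 28396 features by accession, 324 by gene symbol, 185 kept under their own name), so the build is uncertain and no coordinates are given. HTSeq's 5 classes of uncounted fragments were left out of totals and tests: fragments fitting several features (30.9% to 50.3%), none (6.26% to 17.6%) or aligned to several places (1.47% to 2.76%), and 2 classes at 0.

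Counts were summed per gene. CPM is the count divided by the library total and scaled to a fixed sum. Total counts were 39722329 to 87946924, so the number of pools rather than depth limits precision, except for Dop2 outside the brain. Limits from 3 counts cover counting error only. Tissues, taken from the labels, were compared in one fit of 18 libraries with edgeR 4.0.16 (filterByExpr, minimum count 10 and total 15; TMM; glmQLFit, glmQLFTest; R 4.3.3), with Benjamini-Hochberg adjustment over 8759 genes (FDR) and a threshold of 0.05. The SE of a logFC was derived from its test statistic. The test was first tested on simulated data. Shares and ratios were compared by exact two-sided sign-flip permutation tests over patrilines (scipy 1.17.1), shares only where a gene had 20 counts in every library. The same 5 workers gave all tissues of a pool's patriline, which pairs the libraries. Deviations from the tissue means of libraries of the same patriline correlated between −0.14 and 0.47 over 18 pairs.

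Named genes are the 5 receptors, the genes of the lists of amine signalling and of marker genes, and for each receptor the 3 genes most like it among the 253 compared. The receptors, the lists and the tests were chosen with earlier results of these data known. Alternatives were the patriline block, DESeq2 1.42.0, other scalings, no filter, counts per transcript, 12 libraries only, no royal jelly genes and left-out libraries. For counts per transcript, the transcript with the smallest p stood for its receptor. Levels of different receptors within the brain were to be compared per length, but lengths were not used here and this comparison was not run. No matched gene came from the list of P450 markers.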

Additional observations from a re-analysis of the deposited data

Results flagged for a closer look

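The 4 counted receptors in 3 tissues gave 12 groups of 6 pools, which share 18 libraries and are not independent. Dixon's 95% limit is passed by chance in about 1 in 20 independent groups, a rate that does not hold for these 12. In them 6 pools lay further from their nearest neighbour than this limit allows. In the Malpighian tubules this was the pool of P21 for all 4 receptors, with 14.7 CPM of Dop1 (the next pool had 3.71 CPM), 1.49 CPM of Dop2 (0.339), 30.1 CPM of Oa1 (10.7) and 11.9 CPM of Tyr1 (2.71). This is the library in which the summed neuron markers and genes nearly confined to the brain were also high. In the ventriculus the pool of P21 had 3.01 CPM of Dop1 (2.03 in the next pool), and the pool of P24 had 5.38 CPM of Tyr1 (3.89 in the next pool). In the brain none of the 4 receptors had such a pool, since P11 and P21 were low together.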

How the results depend on the processing

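All 72 values of a receptor's logFC in brain over ventriculus, and all 72 in brain over tubules (18 alternatives for each of 4 receptors), kept their direction and stayed past the threshold. The alternative of counts per transcript used the transcript with the smallest p of each receptor. Between ventriculus and tubules 53 of 71 kept their direction and their side of the threshold. With the patriline as a replicate block, 4, 4 and 1 receptors were called in the 3 comparisons and no call changed; the logFC of Dop1 in ventriculus over tubules became 0.21 (FDR = 0.702) and that of Dop2 0.12 (FDR = 0.923), against −0.02 and −0.41. In ventriculus over tubules Dop1 was also positive with DESeq2 (0.051) and with RLE size factors (0.047).

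In this comparison 1 receptor was called. It was 2 with the library total as scaling (Dop1 −1.22, Oa1 −2.02, but not Tyr1, 0.12), which moved the median of all genes to −1.27; relative to that median the 3 were 0.05, −0.76 and 1.39, and under TMM 0.12, −0.67 and 1.48. It was 2 with counts per transcript (with Dop2, logFC = −2.54, FDR = 0.0471). There each receptor stood with its transcript of smallest p, which favours a call. Dop2 held 45 counts in the ventriculus and 93 in the tubules, 71 of them in P21. The number called was 0 to 2 with a patriline left out (0 without P1 and without P24, 2 without P21). Tyr1 fell to 1.07 to 1.20 without P1, P7 or P24, and Oa1 reached −1.02 (FDR = 0.0417) without P7. With 1 patriline left out Dop1 ranged from −0.16 to 0.61 and Dop2 from −0.77 to 1.25, the highest of both without P21 (FDR = 0.0345 and 0.179). The tubule pool of P21 alone, left out after seeing the data, gave 2 calls, Dop1 at 0.71 and Dop2, not called, at 1.14. Without it and the brain pools of P11 and P21 there were also 2, with Dop1 at 0.71 (FDR = 0.00451) and Dop2 at 1.15. Apart from the number of samples, the cause was not tested.

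On TMM-scaled CPM the ventriculus means were higher (Dop1 3.66, Dop2 0.204, Oa1 4.95, Tyr1 7.44) and the brain mean of Oa1 was 131.7. The most counted Dop2 transcript alone had 0.00996 CPM in the ventriculus. Of the ratios, 0 of the 6 calls can pass without P21, with 5 pairs left, and Dop1 to Tyr1 in brain minus tubules was then −0.039. Shares gave 0 calls in 12 tests. A minimum of 50 counts per library left these tests unchanged, since the lowest gene count was 59, and so was no separate check. Without P21, 5 pairs cannot give a call. The comparison of levels between receptors was not run. Depth limits the values of Dop2 outside the brain.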
